A study of Mus musculus with 2 samples.

Results

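Oxidative phosphorylation is carried out by enzymes of the inner mitochondrial membrane, and most of their subunits are encoded in the nucleus. The genes described here are the 92 of 27998 listed genes whose symbols start with Nduf, Uqcr, Cox4i, Cox5, Cox6, Cox7, Cox8 or Atp5, or are Sdha to Sdhd. By known function they fall into 36 subunits of complex I, 4 of complex II, 8 of complex III, 18 of complex IV and 15 of complex V, the ATP synthase. Another 11 symbols that the rule also takes are not subunits: 7 complex I assembly factors, the Ndufa4 paralog Ndufa4l2, the supercomplex factor Cox7a2l, and Atp5s and Atp5sl. Ndufa4, named for complex I, was counted with complex IV, where the protein is now placed.

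Cells came from the abdominal aorta of wild-type C57BL/6J mice that had received LCWE, a Lactobacillus casei cell wall extract, or PBS by peritoneal injection 2 weeks earlier. Mice given LCWE develop inflamed arteries, which is used to model Kawasaki disease of children. Each condition is 1 droplet library made from pooled vessels, 7 aortas for LCWE and 9 for PBS, so mice of a group cannot be told apart and no test between conditions was possible. Brackets hold 95% intervals that cover counting error only.

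Complex I takes electrons from NADH and complex II takes them from succinate. Both pass them through complexes III and IV to oxygen, and the proton gradient built on the way drives complex V. Complexes I, III, IV and V also contain subunits encoded in mitochondrial DNA, whose share of a cell's transcripts is the usual measure of mitochondrial RNA in single-cell data. Several complex IV subunits exist as pairs of nuclear genes, 1 used in most tissues and 1 used in heart and skeletal muscle, lung or testis. In arteries, smooth muscle is the main cell type with contractile work, whereas circulating neutrophils are known for few mitochondria and a metabolism based on glycolysis.

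Promoter sequence was examined first, because the nuclear respiratory factor NRF1 is known to bind the promoters of many of these genes. RefSeq promoters (build GRCm38.p6, 250 bases before to 50 after the annotated start) were matched for 76 of the 92 genes. The NRF1 motif GCGCANGCG, searched on both strands, was present in 21 of the 76 (27.6%) and in 8.83% of 17492 promoters of protein-coding genes. The motif AAGATGGCG of the factor YY1 was present in 7 (9.21%, against 1.94%), and the motif TCAAGGTCA of the estrogen-related receptors in 2 (2.63%, against 0.332%), those of Atp5g3 and Sdhd. The ETS motif CCGGAAGT was present in 5 (6.58%, against 5.29%) and the TATA motif TATAAA in 7 (9.21%, against 13.3%). These motifs do not contain one another, and a match is a run of letters, not a measured binding site. The median promoter held 20 CpG dinucleotides, against 13 over the coding genes, while the 3 lowest numbers belonged to Cox8b with 2, Cox7b with 5 and Cox7a1 with 7.

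The lines that follow give the 120 bases that end just before the annotated start, 5′ to 3′ along the gene, with motifs in capitals. They show, for complexes I, II, IV and V, the gene with the most unique molecular identifiers (UMIs, the tags by which captured transcripts are counted) that has an NRF1 motif in this stretch. Atp5g3 carries the estrogen-related receptor motif on the opposite strand. The muscle isoform genes Cox7a1 and Cox8b were picked by name. They hold none of the motifs there, which is also true of many other members. Cox8b has a TATA motif elsewhere in the longer window used for the counts. The stretches lie as follows: Ndufa11 at chr17:56717642-56717761 (plus strand), Sdha at chr13:74350241-74350360 (minus strand), Cox6a1 at chr5:115348959-115349078 (minus strand), Atp5g2 at chr15:102671048-102671167 (minus strand), Atp5g3 at chr2:73911327-73911446 (minus strand), Cox7a1 at chr7:30184051-30184170 (plus strand), Cox8b at chr7:140900447-140900566 (minus strand).
Ndufa11: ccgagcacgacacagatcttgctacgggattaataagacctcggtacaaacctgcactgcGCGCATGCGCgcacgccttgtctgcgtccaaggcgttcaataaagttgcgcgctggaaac
Sdha: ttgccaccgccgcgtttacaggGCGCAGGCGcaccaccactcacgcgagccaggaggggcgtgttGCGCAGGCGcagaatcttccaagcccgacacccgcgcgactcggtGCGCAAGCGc
Cox6a1: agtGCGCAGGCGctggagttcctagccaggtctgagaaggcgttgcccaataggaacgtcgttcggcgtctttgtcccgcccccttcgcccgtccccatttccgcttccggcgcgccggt
Atp5g2: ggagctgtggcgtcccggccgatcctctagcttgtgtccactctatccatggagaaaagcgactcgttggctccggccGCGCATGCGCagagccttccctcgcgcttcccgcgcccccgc
Atp5g3: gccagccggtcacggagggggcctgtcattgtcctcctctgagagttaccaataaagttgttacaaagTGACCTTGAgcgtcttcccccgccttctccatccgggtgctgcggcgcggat
Cox7a1: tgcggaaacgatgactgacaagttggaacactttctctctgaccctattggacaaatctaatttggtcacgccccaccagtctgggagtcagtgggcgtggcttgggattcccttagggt
Cox8b: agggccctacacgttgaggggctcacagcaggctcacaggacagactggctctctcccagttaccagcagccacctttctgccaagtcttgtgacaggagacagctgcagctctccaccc
In Ndufa11 and Atp5g2 the NRF1 motif reads the same on both strands and gives a run of capitals 1 base longer than the motif. Sdha carries it 3 times.

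The libraries held 5091 LCWE cells with 42275754 UMIs and 5386 PBS cells with 62600808 UMIs, at medians of 5508 and 11252 UMIs per cell. Member genes took 714413 LCWE and 1226355 PBS UMIs, 1.69% and 1.96% of the totals, and 91 of the 92 were counted at least once in each. The authors' fine cell names were kept, and 21 LCWE classes and 3 PBS classes had at least 50 cells. Among the LCWE classes with at least 50 cells, markers of smooth muscle, blood and lymphatic endothelium, B cells and neutrophils were highest in the classes so named, and fibroblast markers were highest in VSMC_2, a class the authors place between smooth muscle and fibroblasts (612 UMIs per cell, against 483 in fibroblasts). NK markers were highest in proliferating T cells (28.8, against 22.8 in NK cells). Pericyte markers were highest in VSMC_2 (33.1, against 29.9 in VSMC_1). Macrophage and monocyte markers were at 125 in the monocyte class Mono1 and 123 in the macrophage class Mac1. The class named Eosinophil carried the neutrophil markers S100a8 and S100a9 at 111 and 119 UMIs per cell, whereas the eosinophil markers Siglecf and Ccr3 had 41 and 2 UMIs over its 142 cells and Il5ra and Epx had 0. LCWE cells carried more haemoglobin RNA than PBS cells in every class compared below (65.1 against 0.535 UMIs per cell in blood endothelium), and 8 barcode sequences occur in both libraries.

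How much of a cell's RNA came from these genes? Among the 21 LCWE classes the member share of UMIs ran from 0.979% (0.953 to 1.00) in neutrophils to 2.52% (2.49 to 2.55) in proliferating T cells, a 2.58-fold range. Contractile smooth muscle cells, the class VSMC_1, were second with 2.23% (2.20 to 2.26). Myeloid cells came next, with 2.02% in the dendritic class DC2, 1.99% in the monocyte class Mono1 and 1.96% (1.94 to 1.97) in the macrophage class Mac1. The intervals of DC2, gamma delta T cells and Mono1 overlapped, so their order is not settled. At the low end stood the class named Eosinophil with 1.08% (1.05 to 1.10), naive CD8 T cells with 1.27% (1.25 to 1.28), naive CD4 T cells with 1.36% (1.34 to 1.38) and fibroblasts with 1.37% (1.36 to 1.38). The last pair of intervals overlapped. With cytosolic ribosomal protein UMIs taken out of the total, naive CD8 and CD4 cells had 2.32% and 2.23%. Those shares were above blood endothelium at 2.03% and fibroblasts at 1.61%, so the low place of naive T cells depends on the total. The class named Eosinophil stayed low at 1.18%. The PBS library gave 2.04% (2.037 to 2.044) in smooth muscle, 1.60% (1.58 to 1.62) in blood endothelium and 1.38% (1.37 to 1.39) in fibroblasts, the same order as in the LCWE library.

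**Figure D1:**
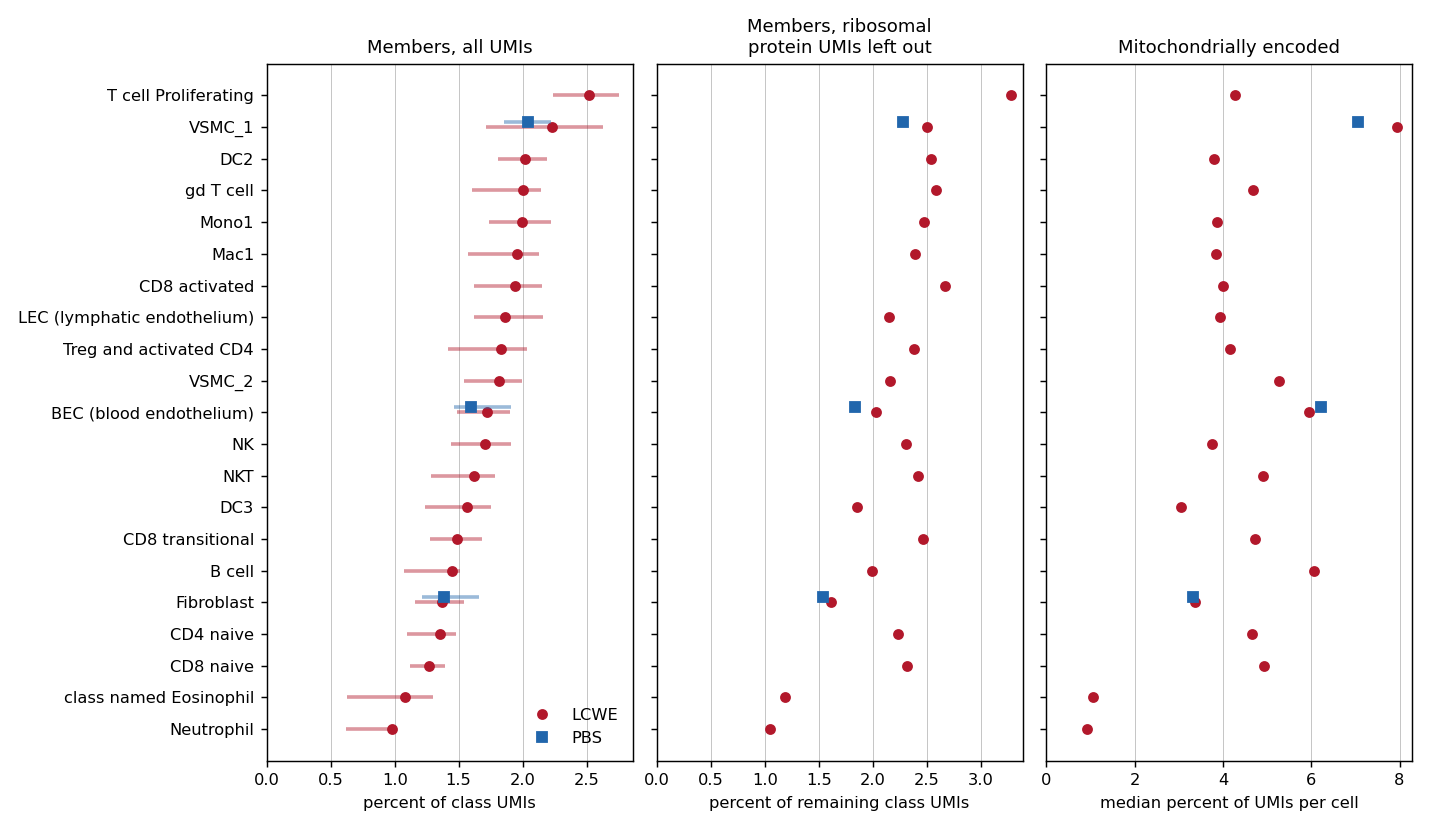
Member share of UMIs by class (left; points are summed shares, bars the quartiles over cells), the same with ribosomal protein UMIs taken out of the total (middle), and the median percent of UMIs per cell in the 13 mitochondrially encoded genes (right), for classes with at least 50 cells. Proliferating T cells at 2.52% and VSMC_1 at 2.23% lead the left panel, and the 2 granulocyte classes are lowest in all 3 panels.

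The nuclear genes and the mitochondrially encoded genes did not rank the classes alike. Over the 21 LCWE classes, the member share and the median mitochondrial percent had a Pearson correlation of 0.48 and a Spearman correlation of 0.208, given as a description because the classes share 1 library. Neutrophils and the class named Eosinophil were lowest in both, with median mitochondrial shares of 0.928% and 1.04%. VSMC_1 was high in both, at 7.94% mitochondrial UMIs. B cells combined a mitochondrial share of 6.06% with a member share of 1.45%, and DC2 combined 3.79% with 2.02%. Within classes, the Spearman correlation over cells was 0.254 in PBS smooth muscle, 0.486 in neutrophils and 0.331 in the class named Eosinophil, and it was between -0.27 and 0.059 in the LCWE classes other than these and VSMC_1 (0.274). Both quantities are shares of the same total, so they are not independent.

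Over all UMIs, T cells spanned much of the range. The member share was 1.27% in naive CD8 cells, 1.49% (1.47 to 1.51) in the class between naive and activated, 1.94% (1.92 to 1.97) in activated CD8 cells and 2.52% in proliferating T cells, and the intervals did not overlap. Medians over cells thinned to 2000 UMIs each gave the same order, at 1.25%, 1.45%, 1.85% and 2.4%. The share of cytosolic ribosomal protein UMIs fell along the same classes, from 45.4% and 39.5% to 27.1% and 23.0%. With those UMIs taken out of the total, the member shares were 2.32%, 2.46%, 2.67% and 3.28%, so the order remained and the distance from naive to activated cells shrank.

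Gene by gene, activated CD8 cells were set against naive CD8 cells of the same library. This and the other comparisons within the LCWE library were chosen after the data were seen, and the cells had been grouped on their whole transcriptomes, members included. A gene counted as higher or lower with at least 20 UMIs in both groups together, a level (CPM, UMIs of the gene in every 1000000 UMIs of the class) at least 1.5-fold different and an interval beyond 1. Of 80 measured members, 51 were higher and 2 lower in activated cells, while 35.1% of 7488 measured genes were higher and 4.79% lower. The members' median log2 ratio was 0.72, against 0.50 over all genes. With ribosomal UMIs left out, 17 members were higher and 2 lower, against 15.3% and 10.9% of all genes, at medians of 0.30 for members and 0.09 for all genes. Over all UMIs, complex IV led the groups with 10 of 11 measured subunits higher and a summed ratio of 1.74 (1.68 to 1.81). Complex I followed with 24 of 36 higher and 1.64 (1.58 to 1.71), and complex III had 1.37 (1.30 to 1.46). The ratios by complex, and those of single genes given below, were not recomputed without ribosomal UMIs. Ribosomal UMIs took 45.4% of the total in naive and 27.1% in activated CD8 cells, so these ratios depend on the total.

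Over all UMIs, some members stood far from the members' median. Ndufb7, an accessory subunit of complex I, had 67.4 CPM in naive and 222 CPM in activated cells, 3.30-fold (2.59 to 4.23) higher. Ndufs8, a subunit that carries iron-sulfur clusters, had 31.8 and 93.6 CPM, 2.95-fold (2.06 to 4.29) higher. Cox5b, a complex IV subunit, had 174 and 432 CPM, 2.48-fold (2.12 to 2.90) higher. These genes thus exceeded the ratio of the complexes they belong to. Ndufa6, also an accessory subunit of complex I, had 229 and 232 CPM, a ratio of 1.01 (0.862 to 1.19).

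The 2 members lower in activated cells are not subunits. Cox7a2l, counted here as a supercomplex factor, had 676 CPM in naive CD8 cells, 562 in naive CD4 cells, 483 in the intermediate CD8 class, 439 in activated CD8 cells and 254 in proliferating T cells. Whether its protein acts in supercomplexes in mice of this strain was not tested. The decline thus ran opposite to that of the subunits, with a ratio of 0.649 (0.585 to 0.721) from naive to activated and 0.579 (0.498 to 0.672) from activated to proliferating cells. Of the members with at least 500 LCWE UMIs, it alone was highest in naive CD8 cells. The assembly factor Ndufaf4 had 33.3 and 17.2 CPM, a ratio of 0.515 (0.299 to 0.867).

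From activated CD8 to proliferating T cells, 29 of 81 measured members were higher and 1, Cox7a2l, was lower, against 21.2% higher and 10.8% lower over 7702 genes. The median log2 ratio was 0.52 for members and 0.14 for all genes. Ndufab1, the mitochondrial acyl carrier protein and a complex I subunit, had 75 and 203 CPM, 2.70-fold (2.12 to 3.46) higher. Ndufa5 of complex I followed with 60.0 and 152 CPM, 2.53-fold (1.92 to 3.34) higher. Atp5g3, 1 of 3 genes for the same ring subunit of complex V, had 251 and 512 CPM, 2.04-fold (1.78 to 2.35) higher. Ndufa5 had been at 62.0 CPM in naive cells, close to its level in activated cells, whereas Atp5g3 had 122 CPM in naive cells and was higher at both steps. Complex III changed least among the complexes, with a summed ratio of 1.19 (1.12 to 1.25), and its hinge subunit Uqcrh went from 925 to 626 CPM, a ratio of 0.677 (0.614 to 0.746) that did not reach the 1.5-fold limit. Proliferating T cells carried 22.8 UMIs per cell of the cycling markers Mki67, Top2a and Birc5, against 0.265 in activated CD8 cells, and a median of 12440 against 3839 UMIs per cell. NK markers had 28.8 UMIs per cell in proliferating T cells and 13.3 in activated CD8 cells. Macrophage and monocyte markers had 7.83 and 0.541. The part of depth, cycling and other cell types in the difference was not tested.

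Neutrophils stood at the other end. Against Mono1, the LCWE monocyte class, 65 of 82 measured members were lower and 0 higher, and the summed level was 2.04-fold (1.98 to 2.10) lower. Over 7790 measured genes 32.0% were lower and 11.4% higher, and the median log2 ratio was -0.56, against -1.07 for members. Complexes I to V differed little in this, with summed ratios of 0.463 (0.438 to 0.488) for complex V, 0.469 (0.429 to 0.512) for complex III, 0.507 (0.481 to 0.535) for complex IV, 0.509 (0.481 to 0.537) for complex I and 0.517 (0.415 to 0.638) for complex II.

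Among the measured subunits the lowest ratios were in complex I, and outside the subunits Atp5sl had 0 UMIs in neutrophils and 23 in Mono1 and Ndufaf4 had 1 and 28. Ndufc2, a membrane subunit of complex I, had 41.9 CPM in neutrophils and 204 in Mono1, and Ndufa10 had 16.4 and 79.3 CPM, ratios of 0.206 (0.129 to 0.312) and 0.207 (0.0929 to 0.402). Atp5g1, another gene for the ring subunit of complex V, had 71.0 and 256 CPM, a ratio of 0.278 (0.196 to 0.385). Ndufb7 was 191 and 215 CPM, a ratio of 0.889 (0.713 to 1.10). The neutrophil class also held 31.6 UMIs per cell of fibroblast markers and 72.7 of macrophage and monocyte markers, against 2.15 and 125 in Mono1. Its median cell had a member share of 0.793%, below the summed 0.979%. The part of fibroblast and monocyte RNA in the neutrophil levels was not tested.

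**Figure D2:**
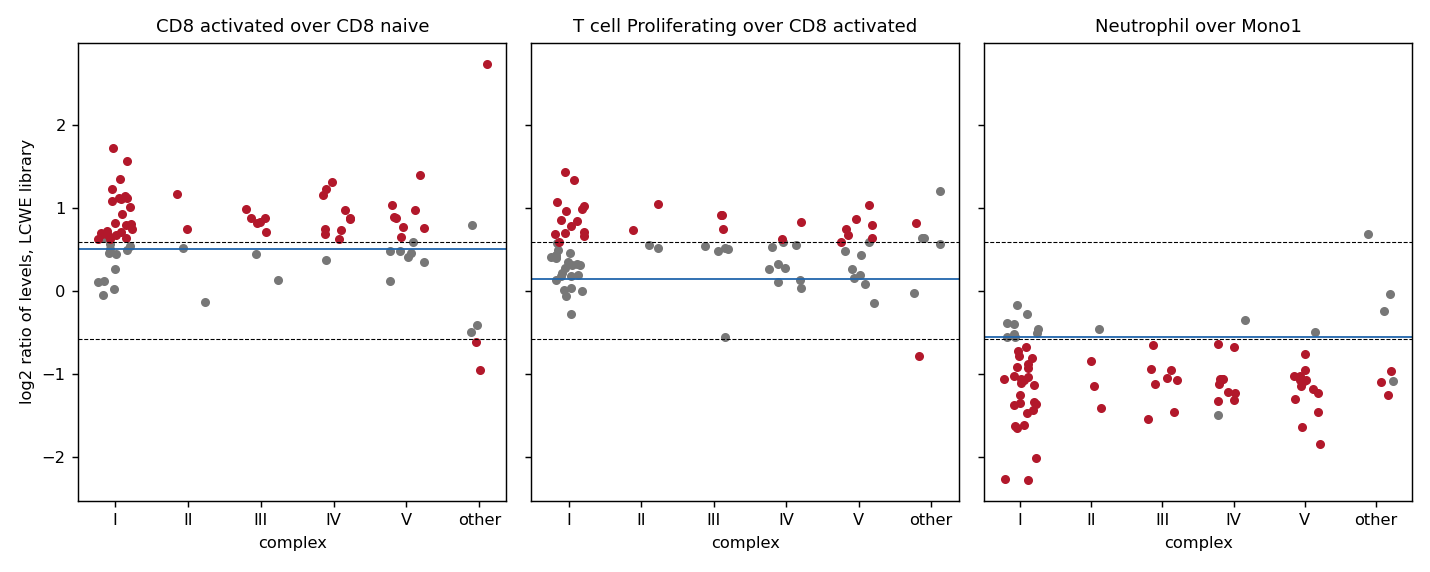
Log2 ratio of the level of each measured member between 2 classes of the LCWE library, by complex. Red points passed the 1.5-fold rule (53 of 80, 30 of 81 and 65 of 82 members), dashed lines mark 1.5-fold and the blue line is the median over all measured genes (0.50, 0.14 and -0.56).

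The split over the complexes differed between classes. Complex I made up 31.5% (30.8 to 32.1) of the member UMIs in LCWE smooth muscle, 31.0% in fibroblasts, 30.9% in lymphatic endothelium and 30.6% in VSMC_2, and the intervals of these 4 classes lay above those of the LCWE leukocyte classes with at least 50 cells. Naive CD8 T cells had 23.8% (23.1 to 24.4) and NK cells 24.1%, and the other leukocyte classes lay between 24.6% and 27.9%. Blood endothelium, with 28.1% (27.7 to 28.5), overlapped gamma delta T cells at 27.9% (26.6 to 29.2), neutrophils at 27.8% (26.6 to 29.0) and DC2 at 27.7% (27.3 to 28.2), so not every wall class stood apart. The complex V part ran from 26.5% in VSMC_1 to 33.3% in proliferating T cells, and neutrophils, at 28.3% (27.1 to 29.5), lay among the wall classes. In the PBS library complex I made up 33.2% in fibroblasts, 33.0% in smooth muscle and 29.9% in blood endothelium, each above its LCWE counterpart.

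**Figure D3:**
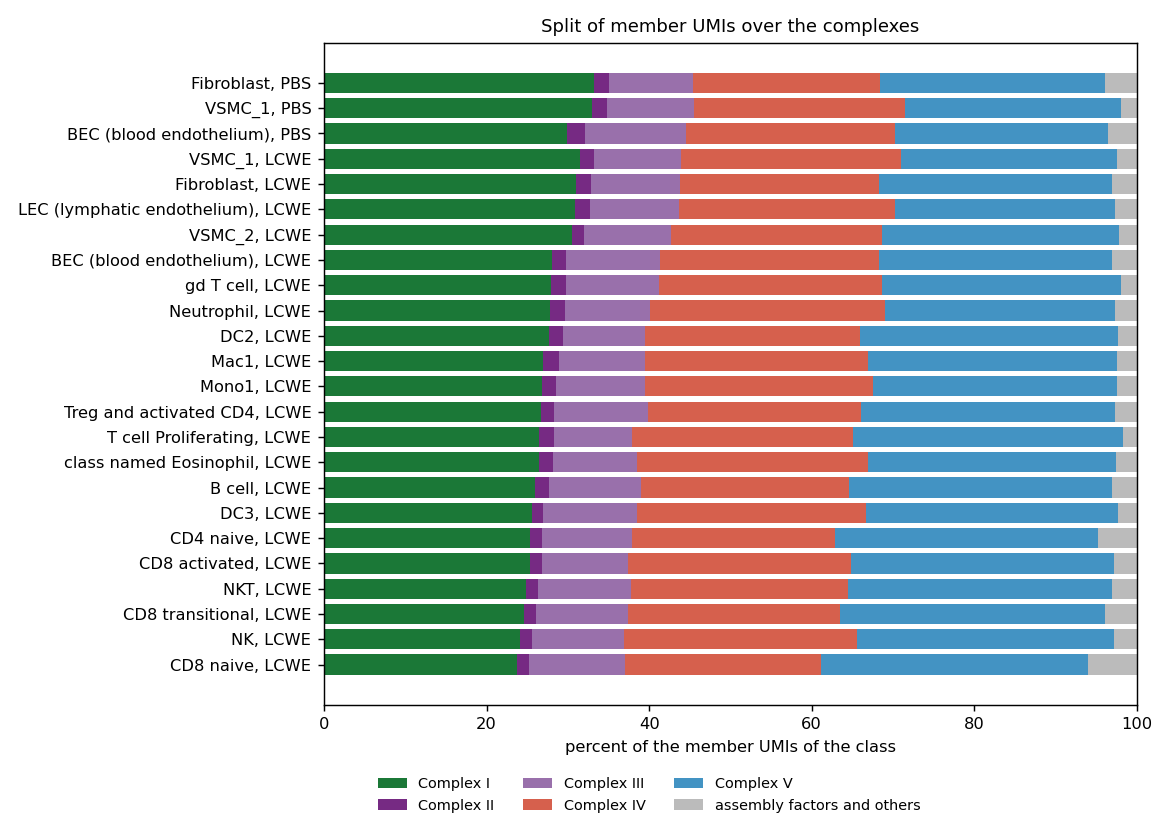
Percent of the member UMIs that fell to each complex, for LCWE classes in order of the complex I share and for the 3 PBS classes on top. The complex I part grows from 23.8% in naive CD8 cells to 31.5% in LCWE smooth muscle and 33.2% in PBS fibroblasts.

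Within complex I, a few accessory subunits carried the smooth muscle pattern. Ndufa11 had 350 CPM (312 to 392) in LCWE and 370 CPM (365 to 375) in PBS smooth muscle, 242 CPM in VSMC_2 and 198 CPM in proliferating T cells, with a median of 125 over the LCWE classes and 40.1 in neutrophils. Ndufa5 had 203 and 189 CPM in LCWE and PBS smooth muscle, against a median of 74.1. Ndufc1 had 244 and 226 CPM there, against 93.6. Of the 82 members with at least 500 LCWE UMIs, 37 had their highest LCWE level in proliferating T cells and 23 in VSMC_1, while 32 were lowest in neutrophils, 23 in naive CD8 cells and 17 in the class named Eosinophil. These levels are over all UMIs, of which ribosomal protein genes took 45.4% in naive CD8 cells. For 80 of the 82 members the highest level was under 3 times the median over classes, and for the median member 1.78 times, so those 80 were counted broadly. The exceptions were Ndufa4l2 and Cox6a2. Cox6a2 passed the minimum through plasmacytoid dendritic cells, which held 370 of its 522 UMIs and are not among the 21 classes. The minimum also leaves out sparse members. Among them, Cox4i2 with 248 LCWE UMIs was 68.0 times its median in VSMC_1, and Cox7a1 with 67 was 7.19 times its median in DC2.

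The subunits with the most UMIs in each complex followed the general order, with exceptions. In complex I, Ndufa13 ran from 186 CPM in neutrophils to 435 in activated CD8 cells, and Ndufa2, Ndufb9 and Ndufa7 were highest in VSMC_1 at 355, 394 and 322 CPM. In complex II, the catalytic subunit Sdha had 120 CPM in LCWE smooth muscle and 49.2 in neutrophils, and Sdhc, a membrane anchor, had 105 and 18.2. In complex III, Uqcrh peaked in activated CD8 cells at 925 CPM, whereas Uqcrb and Uqcr11 peaked in VSMC_1 at 403 and 373 and Uqcr10 in proliferating T cells at 369. Complex IV was less uniform. Cox4i1 peaked in Mono1 at 1119 CPM, Cox8a in proliferating T cells at 1094, Cox6c in lymphatic endothelium at 787 and Cox7c in VSMC_1 at 693. In complex V, Atp5e and Atp5j were highest in proliferating T cells at 836 and 533 CPM, Atp5l in Mono1 at 689 and Atp5h in activated CD8 cells at 859.

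Did these genes differ between LCWE and PBS in the same class? As a sum they hardly did. The ratio of LCWE to PBS share was 1.09 (1.08 to 1.11) in smooth muscle (93 and 4141 cells), 0.990 (0.981 to 0.998) in fibroblasts (813 and 868 cells), 1.07 (1.06 to 1.09) in blood endothelium (239 and 217 cells) and 0.930 (0.908 to 0.951) in T, NK and innate lymphoid cells as 1 class (2198 and 75 cells). The median gene itself shifted by 0.12 on the log2 scale in smooth muscle and by -0.19 in the T, NK and innate lymphoid class, and the members' medians were 0.12 and -0.11. Scaled to the median gene, the summed log2 ratio was 0.00426 in smooth muscle and turned from -0.11 to 0.09 in T, NK and innate lymphoid cells. In fibroblasts the direction also depended on the total: the log2 ratio was -0.01 over all UMIs and 0.07 with ribosomal UMIs left out, which took 15.2% of LCWE and 9.95% of PBS fibroblast UMIs. It was 0.06 with the fibroblasts that hold a Chl1 UMI left out, which were 481 LCWE and 0 PBS cells.

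Single members rarely passed the 1.5-fold rule. In smooth muscle 3 of 88 measured members were higher and 0 lower, against 11.4% of 12817 measured genes higher and 5.31% lower. In fibroblasts 2 of 88 were higher and 2 lower, against 16.3% and 12.7% of 12357 genes. In blood endothelium 5 of 86 were higher and 2 lower, against 16.1% and 11.8% of 10319 genes. In T, NK and innate lymphoid cells 0 of 85 were higher and 1 lower, against 3.19% and 6.37% of 10602 genes. The members' shares were thus below those over all genes in each direction and class.

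**Figure D4:**
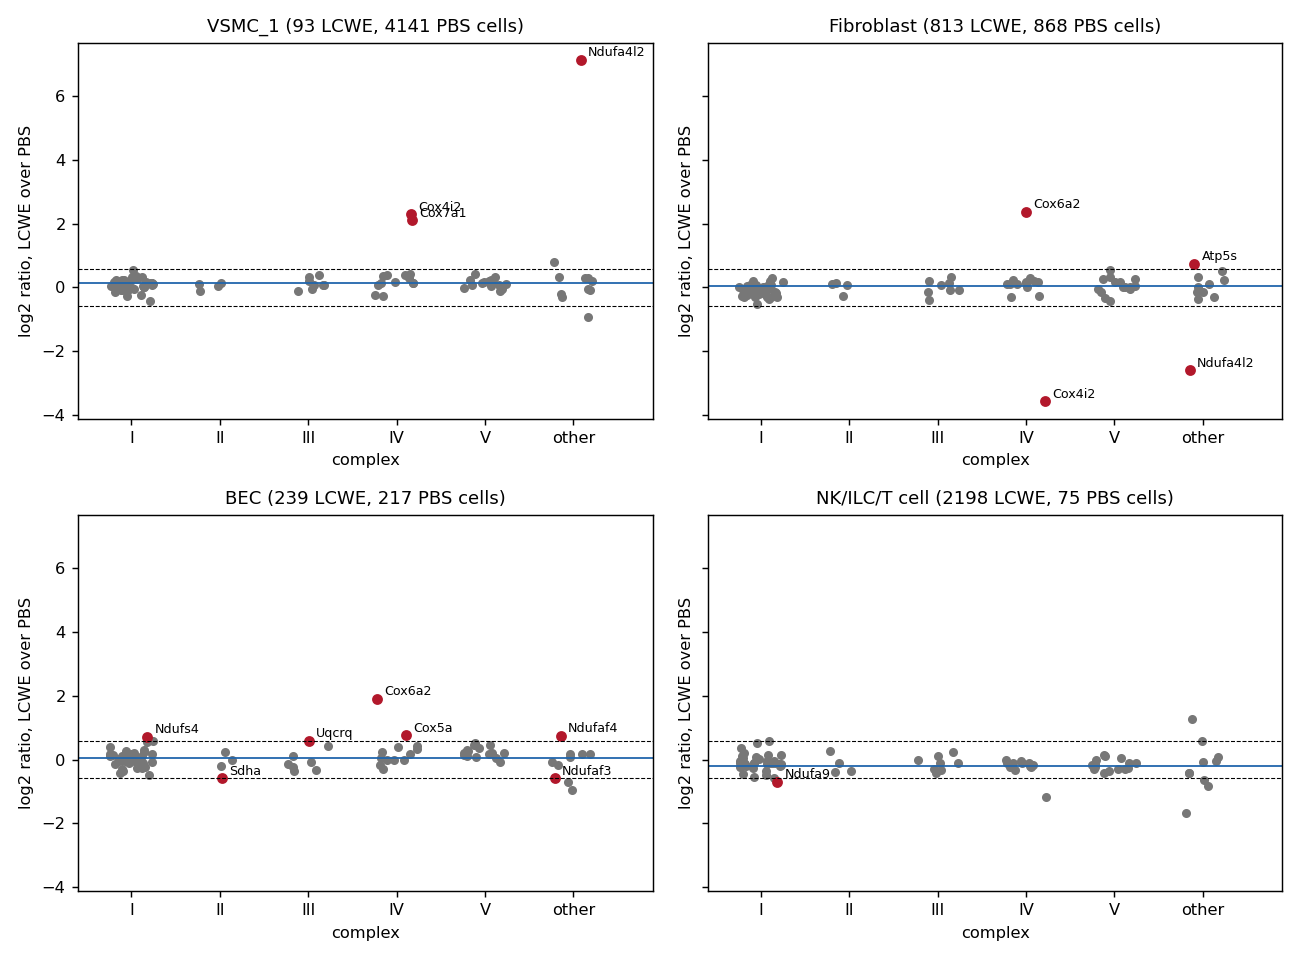
Log2 ratio of LCWE over PBS for each measured member in the 4 classes compared, by complex. Red points are the members past the 1.5-fold rule, dashed lines mark 1.5-fold and the blue line is the median over all measured genes. Most members lie within the dashed lines, and Ndufa4l2 and Cox4i2 lie farthest out, with opposite signs in VSMC_1 and fibroblasts.

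In blood endothelium the called members belonged to different complexes. Cox5a of complex IV had 211 CPM in PBS and 358 in LCWE, 1.70-fold (1.5 to 1.92) higher. Ndufs4, a complex I subunit, had 42.0 and 69.3 CPM, 1.65-fold (1.25 to 2.19) higher, and the assembly factor Ndufaf4 had 25.2 and 42.0 CPM, 1.67-fold (1.17 to 2.43) higher. Uqcrq of complex III had 185 and 279 CPM, 1.51-fold (1.32 to 1.73) higher. Sdha, the subunit that oxidizes succinate, had 140 and 93.2 CPM, 1.5-fold (1.26 to 1.79) lower, and the assembly factor Ndufaf3 had 44.4 and 29.6 CPM, also 1.5-fold lower. Uqcrq, Sdha and Ndufaf3 sit at the limit of the rule: Uqcrq is no longer called when scaled to the median gene or without cells over 10% mitochondrial UMIs, and the other pair when mitochondrial or ribosomal UMIs are left out.

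By complex, endothelial levels summed to 4925 CPM in LCWE and 4187 in PBS for complex V, a ratio of 1.18 (1.14 to 1.21), and to 4640 and 4096 for complex IV, 1.13 (1.10 to 1.17). Complex I was at 4827 and 4785 CPM, 1.01 (0.981 to 1.04), and complex II at 298 and 345, 0.864 (0.777 to 0.961). LCWE endothelial cells had a median of 10121 UMIs against 5846, and 22.5 against 5.44 UMIs per cell of smooth muscle markers. At 2000 UMIs per cell the median share was 1.7% in both libraries, and the part of smooth muscle RNA was not tested.

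In fibroblasts complex I summed to 4236 CPM in LCWE and 4592 in PBS, a ratio of 0.923 (0.909 to 0.937), and complex IV to 3344 and 3170, 1.06 (1.04 to 1.07). Both ratios are over all UMIs, of which ribosomal protein genes took 15.2% in LCWE and 9.95% in PBS fibroblasts. They depend on that total and were not recomputed without ribosomal UMIs. Atp5s, which is not a subunit of complex V, had 6.31 and 3.78 CPM, 1.67-fold (1.02 to 2.82) higher, a call that ends when scaled to the median gene. In T, NK and innate lymphoid cells the single call was Ndufa9 of complex I, with 45.8 CPM in LCWE and 73.8 in PBS, 1.61-fold (1.07 to 2.33) lower on 30 PBS UMIs. Of those PBS cells 4 were proliferating T cells. They held 70897 of the 406551 UMIs of the PBS cells, and leaving the proliferating class out of both libraries brought the summed log2 ratio from -0.11 to -0.0132 and that of Ndufa9 from -0.69 to -0.33 (-1.01 to 0.44), which ends its call. Scaled to the median gene Ndufa9 was at -0.49 (-1.03 to 0.09) and not called. The LCWE and PBS mixtures also differed in other classes. Naive CD8 cells numbered 280 in LCWE and 1 in PBS, and the 318 NKT cells were all in LCWE. LCWE and PBS cells held 5.77 and 28.4 UMIs per cell of NK markers and 0.316 and 3.15 of smooth muscle markers. The part of these differences in the summed ratio was not tested.

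Cox4i2, the complex IV isoform known from lung and from oxygen sensing, is at chr2:152754173-152765037 (mm10, plus strand), and its partner Cox4i1 is used in most tissues. In the PBS library 499 of 558 Cox4i2 UMIs were in smooth muscle (89.4%) and 58 in fibroblasts. In the LCWE library 170 of 248 were in VSMC_2 (68.5%) and 40 in VSMC_1 (16.1%). The level in smooth muscle was 9.33 CPM (8.53 to 10.2) in PBS and 45.8 CPM (32.7 to 62.3) in LCWE, 4.90-fold (3.46 to 6.77) higher, and 29.4 CPM (25.1 to 34.1) in VSMC_2. In fibroblasts it was 9.53 CPM (7.24 to 12.3) in PBS and 0.801 CPM (0.346 to 1.58) in LCWE, a ratio of 0.0841 (0.0347 to 0.177). The direction thus differed between the 2 classes, a difference that was not tested. Cox4i2 made up 4.81% (3.46 to 6.50) of the Cox4i1 and Cox4i2 UMIs in LCWE smooth muscle, 3.81% (3.26 to 4.41) in VSMC_2 and 1.13% (1.03 to 1.23) in PBS smooth muscle, so Cox4i1 remained the main form.

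Cox4i2 was counted in 19 of 93 LCWE smooth muscle cells (20.4%, at a median of 8547 UMIs per cell), and 1 cell held 17.5% of the UMIs. The 52 LCWE smooth muscle cells with a UMI of the pericyte markers Kcnj8 or Abcc9 had 49.4 CPM (32.9 to 71.5). The other 41 had 39.0 CPM (20.2 to 68.1). In PBS smooth muscle the values with and without such a UMI were 9.56 and 8.41 CPM. Of the 2198 LCWE T, NK and innate lymphoid cells, at a median of 3986 UMIs, 3 had a Cox4i2 UMI (0.136%). Over the 24 groups of class and library with at least 50 cells, the genes whose log2(CPM + 1) was most like that of Cox4i2 were 2310030G06Rik (Pearson 0.912), Slc6a17 (0.896), Angpt4 (0.893), Des (0.891) and Pak3 (0.885). Des encodes desmin, the intermediate filament of muscle.

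Ndufa4l2, at chr10:127514967-127517154 (mm10, plus strand), encodes a paralog of Ndufa4 and is known as a target of hypoxia-inducible factor that lowers complex I activity. Its PBS UMIs were nearly all in fibroblasts, 1376 of 1443 (95.4%). In the LCWE library fibroblasts held 373 of 589 (63.3%) and VSMC_1 held 135 (22.9%). In fibroblasts the level was 226 CPM (214 to 238) in PBS and 37.4 CPM (33.7 to 41.3) in LCWE, 6.05-fold (5.40 to 6.81) lower. In smooth muscle it was 1.10 CPM (0.840 to 1.42) in PBS and 154 CPM (130 to 183) in LCWE, 140.0-fold (102 to 193) higher. The smooth muscle value in LCWE was above that of LCWE fibroblasts and below that of PBS fibroblasts. The UMIs of LCWE smooth muscle came from 25 of 93 cells, with 14.1% in 1 cell. The 52 LCWE smooth muscle cells with a Kcnj8 or Abcc9 UMI had 111 CPM (85.5 to 142), and the other 41 had 234 CPM (183 to 295). In PBS the 3201 cells with such a UMI had 1.05 CPM and the other 940 had 1.32 CPM. The part of a different make-up of the LCWE and PBS smooth muscle classes was not tested. LCWE and PBS smooth muscle cells held 31.8 and 38.0 UMIs of fibroblast markers per cell, against 483 and 426 in fibroblasts.

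The level also differed among fibroblasts of 1 library. PBS fibroblasts with a UMI of Hhip or Angptl7 numbered 328 of 868 and had 344 CPM (321 to 367) of Ndufa4l2, and the others had 146 CPM (134 to 160). In LCWE 41 of 813 had such a UMI, at 185 CPM (145 to 233), and the others had 31.3 CPM (27.8 to 35.0). The level was thus lower in LCWE on both sides of that split. LCWE fibroblasts with a Chl1 UMI had 20.5 CPM (17.2 to 24.1) and those without had 76.8 CPM (67.2 to 87.3), which brought the log2 ratio to PBS from -2.60 to -1.56. Hhip, Angptl7 and Chl1 were taken up with their values in these libraries known. The genes most like Ndufa4l2 over the 24 groups were Cpxm2 (0.921), Agtr1a (0.908), Aspn (0.905), Adcyap1r1 (0.892) and Cpeb1 (0.889), of which Agtr1a encodes an angiotensin II receptor.

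**Figure D5:**
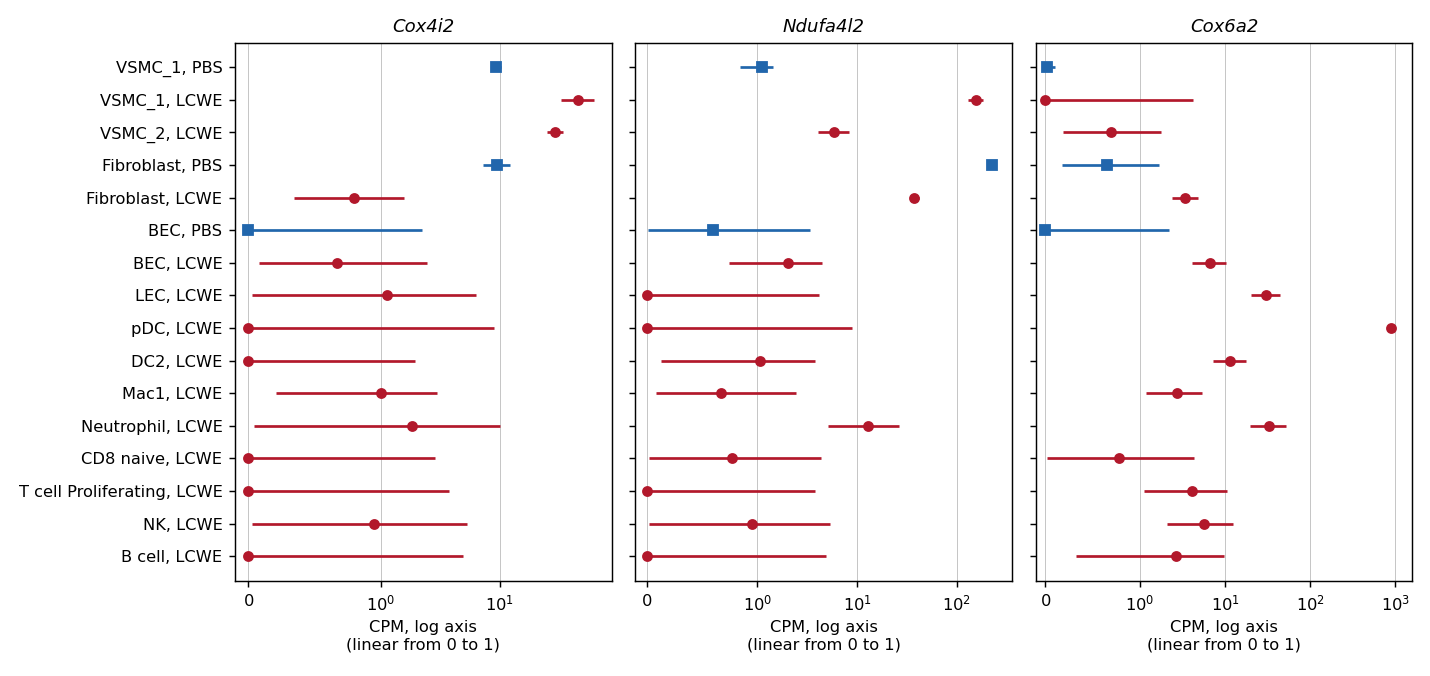
Level of Cox4i2, Ndufa4l2 and Cox6a2 in CPM on a log axis (linear from 0 to 1) in 16 groups of class and library, with 95% Poisson bars. Ndufa4l2 is at 226 CPM in PBS fibroblasts and 154 in LCWE smooth muscle, Cox4i2 is highest in LCWE smooth muscle at 45.8, and Cox6a2 reaches 893 in plasmacytoid dendritic cells.

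Cox6a2, the heart and skeletal muscle isoform of a complex IV subunit (chr7:128205435-128206387, minus strand, mm10), was held here mainly by a leukocyte class. Plasmacytoid dendritic cells, of which the LCWE library held 47, had 370 of its 522 LCWE UMIs (70.9%) at 893 CPM (804 to 989), with a UMI in 41 of the 47. The PBS library held 5 Cox6a2 UMIs and no cell of that class. Outside it, UMIs came from few cells: 3 lymphatic endothelial cells held 27, 1 neutrophil held 18, and 3 blood endothelial cells held 20, of which 65% were in 1 cell. Its calls as higher in blood endothelium (20 against 0 UMIs, at least 3.74-fold against a floor of 3 UMIs in PBS) and in fibroblasts (34 against 4 UMIs, 5.18-fold, 1.85 to 20.1) rest on such cells. The call in fibroblasts ends when those with a Chl1 UMI are left out, because 10 LCWE and 4 PBS UMIs miss the minimum of 20. Those 10 were in 1 cell. The LCWE level was 3.34 CPM without and 3.43 CPM with a Chl1 UMI, against 0.657 CPM in PBS. Its most similar gene over the 24 groups, which do not include plasmacytoid cells, was Siglech, a marker of those cells, at 0.777.

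The remaining tissue isoforms were sparse. Cox7a1, a muscle isoform, had 67 LCWE and 85 PBS UMIs and was called in smooth muscle on 5 against 71 UMIs (5.72 and 1.33 CPM, 4.31-fold, 1.36 to 10.5 higher), a call that ends without cells over 10% mitochondrial UMIs. Cox6b2, known from testis, had 350 and 1045 UMIs and made up 4.85% (4.54 to 5.17) of the Cox6b1 and Cox6b2 UMIs in PBS smooth muscle and 3.07% (1.60 to 5.30) in LCWE smooth muscle, with overlapping intervals. Cox8b had 7 and 5 UMIs, Cox7b2 had 1 in each library and Cox8c had 0 in both. The floor of 3 UMIs is 0.0479 CPM in the PBS library and 0.071 CPM in the LCWE library.

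The 3 genes for the ring subunit of complex V differed in their split between classes. Atp5g1 made up 37.1% (35.6 to 38.7) of their joint UMIs in PBS fibroblasts, 28.7% (27.6 to 29.7) in LCWE fibroblasts, 33.4% (33.0 to 33.9) and 32.0% (28.9 to 35.3) in PBS and LCWE smooth muscle, and 20.3% (17.8 to 22.9) in naive CD8 cells. Atp5g2 took 64.0% (60.9 to 66.9) in naive CD8 cells. The intervals of PBS and LCWE fibroblasts did not overlap for Atp5g1, and those of smooth muscle did.

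Genes of the same pathway outside the rule were counted from fixed lists, to be read against the shares of all genes called in each class, which for higher and lower were 11.4% and 5.31% in smooth muscle, 16.3% and 12.7% in fibroblasts, 16.1% and 11.8% in blood endothelium, and 3.19% and 6.37% in the T, NK and innate lymphoid class. Of the 13 mitochondrially encoded genes, 0 were called in smooth muscle, blood endothelium or T, NK and innate lymphoid cells, and 1, mt-Nd6, was called higher in LCWE fibroblasts (12.8 against 8.38 CPM). Of 13 enzymes of the citrate cycle, 1 was higher and 1 lower in smooth muscle (Dlst, 60.6 against 38.2 CPM, and Suclg2, 29.8 against 56.5 CPM), 0 were called in fibroblasts, 1 was higher in blood endothelium (Cs, 61.2 against 40.2 CPM) and 1 lower in T, NK and innate lymphoid cells (Sucla2, 28.2 against 51.7 CPM). Among 11 carriers, 4 were higher and 0 lower in LCWE blood endothelium (16.1% and 11.8% of all genes). The ADP/ATP exchanger Slc25a5 led with 260 against 113 CPM, 2.31-fold (1.96 to 2.72), and the others were Cycs, Vdac1 and Atpif1. The carriers gave 0 calls in smooth muscle and 1, lower, in fibroblasts. Lymphoid cells (T, NK and innate) had 2 carriers lower (6.37% of all genes) and 0 higher. Of 28 assembly factors outside the rule, 2 were higher and 2 lower in blood endothelium, with the same counts in fibroblasts. Smooth muscle had 1 assembly factor higher and 2 lower, and those lymphoid cells had 0 called.

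Of 13 regulators measured in smooth muscle 4 were higher and 0 lower, against 11.4% and 5.31% of all genes. Of 11 in blood endothelium 2 were higher (16.1% of all genes), and of 12 in fibroblasts 2 were higher and 1 lower (16.3% and 12.7%), both near the share over all genes. Hif1a, the oxygen-regulated subunit of hypoxia-inducible factor, was higher in all 3, with 303 against 122 CPM in smooth muscle (2.48-fold, 2.19 to 2.81), 222 against 67.7 in fibroblasts (3.28-fold, 2.95 to 3.65) and 241 against 65.4 in blood endothelium (3.69-fold, 3.01 to 4.55). In fibroblasts Ppargc1a, the coactivator known for driving mitochondrial biogenesis, had 2 LCWE and 18 PBS UMIs, a ratio of 0.0677 (0.00762 to 0.283), and Esrra, an estrogen-related receptor, had 13.4 against 8.05 CPM, 1.67-fold (1.19 to 2.36) higher. The uncoupling protein gene Ucp2, which leukocytes express, was higher in all 3 wall classes. It had 45.8 against 0.449 CPM in smooth muscle, 37.2 against 13.1 in fibroblasts and 60.2 against 6.60 in blood endothelium, and 253 CPM was the summed level of the 3 uncoupling genes in LCWE T, NK and innate lymphoid cells. LCWE smooth muscle cells held 2.39 UMIs of neutrophil markers and 1.20 of T cell markers per cell, against 0.0338 and 0.00459 in PBS, and the part of leukocyte RNA in the Ucp2 values was not tested.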

How the data were processed

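Single-cell RNA was measured in 1 LCWE and 1 PBS library. Per the submitters' processing notes, Cell Ranger 3.0.2 and mm10 were used; the annotation and the handling of reads that match several genes are not given in the sources used here, so members with near-identical pseudogenes are uncertain. The authors deposited raw UMI counts per gene and cell (27998 genes, 10477 cells) and a cell table with their class names and the percent of UMIs in 13 mitochondrial genes. That percent was recomputed in 10477 cells. Of 293335046 entries of the joint and single-library tables, 0 differ, and 0 columns of sample values went unused. No listed cell carries the authors' mark for a dead cell or a doublet; no doublet caller was run. The unit the files hold is the one assumed beforehand.

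UMIs were summed per class and library and divided by the class total (share, or CPM). Shares have Clopper-Pearson intervals, levels Poisson intervals and ratios exact conditional binomial intervals, at 95.0% (Python 3.11.15, numpy 2.4.6, scipy 1.17.1, pandas 2.3.3, matplotlib 3.10.9). No p-value was computed. A class was compared where each library held 50 or more of its cells; a member or gene was measured with at least 20 UMIs in both groups together and called at 1.5-fold with the interval beyond 1. For log2 ratios and medians, sums under 3 UMIs were raised to 3. The calls were tried on simulated Poisson counts with planted changes. Those counts held no variation between cells or mice, so the trial cannot tell how the rule behaves under such variation. The rule named, in each complex, the 4 members with most UMIs, the tissue isoform pairs, up to 5 called members per direction and class, members at least 4 times their median in 1 class, members at 0, and for Cox4i2 and Ndufa4l2 the 5 most similar genes (log2(CPM + 1), at least 200 UMIs). Members named elsewhere, among them Cox7a2l, Ndufa11, Ndufb7 and the neighbours of Cox6a2, were chosen after their values were seen. Members, lists and rules were chosen with earlier results of these data known. GENCODE vM21 (GRCm38) gave positions for 91 of the 92 members. Alternatives changed the total, the cells, the UMI minimum, the fold, the scaling and the depth per cell.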

Additional observations from a re-analysis of the deposited data

Results flagged for a closer look

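Members with opposite differences in separate cell classes were singled out. The log2 ratio of LCWE over PBS for Cox4i2 was 2.29 in smooth muscle cells and -3.57 in fibroblasts. For Ndufa4l2 it was 7.13 in smooth muscle cells and -2.60 in fibroblasts. With 1 library per condition, the difference between the classes was not tested. LCWE smooth muscle rests on 93 cells, with 40 Cox4i2 and 135 Ndufa4l2 UMIs, and LCWE fibroblasts on 8 Cox4i2 UMIs.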

How the results depend on the processing

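No paired analysis was possible because each condition is 1 library, and leaving out a replicate was not possible for the same reason. Of the alternatives, those without ribosomal UMIs, those without proliferating T cells and the limit of 10% mitochondrial UMIs for the split over complexes were added after the data were seen. The summed log2 ratio was reversed in fibroblasts (-0.01) without Chl1 cells (0.0563) and without ribosomal UMIs (0.0719), and in the T, NK and innate lymphoid class (-0.11) when scaled to the median gene (0.0883). Scaled to the median gene it was 0.0397 in blood endothelium, -0.0579 in fibroblasts and 0.00426 in smooth muscle, with 1 member higher in fibroblasts (15.1% of all genes) and 3 higher and 0 lower in the T, NK and innate lymphoid class (6.63% and 3.75%). As the median of cells thinned to 2000 UMIs it was 0, -0.0525, 0.0518 and -0.0473 in endothelium, fibroblasts, smooth muscle and the T, NK and innate lymphoid class, and the range of shares over classes was 3.2-fold. Without ribosomal UMIs the ratio was 0.15 in endothelium and -0.00572 in the T, NK and innate lymphoid class, the range 3.12-fold, 0 members were lower in endothelium (10.8% of all genes), 4 higher in fibroblasts (19.2%), 3 higher in T, NK and innate lymphoid cells (4.77%), 17 higher in activated CD8 cells (15.3%) and 2 lower in proliferating T cells (13%). Without cells over 10% mitochondrial UMIs smooth muscle gave 0.10, and without mitochondrial UMIs 0 members were lower in endothelium (11.7%). Without proliferating T cells the ratio was -0.0132, with 1 member higher and 2 lower (2.75% and 5.46%). At 200 UMIs or more, 3 members were higher and 1 lower in endothelium (14.8% and 13.6%), 0 higher and 1 lower in fibroblasts (12.8% and 11.2%) and 1 higher in smooth muscle (9.13%). At 2-fold, 1 was higher and 0 lower in endothelium (10.7% and 6.02%), 1 higher in fibroblasts (9.91%) and 0 lower in the T, NK and innate lymphoid class (3.87%). Fibroblasts without Chl1 had 1 member higher (12.1%). Ndufa4l2 in fibroblasts was -1.56 without Chl1 cells. Beyond the changes in which cells, genes or UMIs were counted, the cause was not tested. For single members, 10 recomputed log2 ratios kept their direction and lost their call: Uqcrq (0.53 scaled to the median gene, 0.58 without cells over 10% mitochondrial UMIs), Sdha and Ndufaf3 (both -0.58 without mitochondrial and -0.54 without ribosomal UMIs), Atp5s (0.70 scaled), Cox7a1 (2.12 without cells over 10% mitochondrial UMIs, on sums raised to 3 UMIs) and Ndufa9 (-0.49 scaled, -0.33 without proliferating T cells). Another 114 recomputed values stayed within the interval of the main value or within 1.5 times the main count, and single members among them kept their call. The T, NK and innate lymphoid comparison rests on 75 PBS cells.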
